A study of Homo sapiens with 24 samples.

Results

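Matrix metalloproteases and their tissue inhibitors (TIMPs) were followed through keratinocyte differentiation in cells depleted of the histone acetyltransferases KAT2A, KAT2B or both. The genes are the 10 rows of the deposited count table, of 26364 in all, whose symbols are MMP1, MMP2, MMP3, MMP9, MMP10, MMP13, MMP14, MMP28, TIMP1 and TIMP2. All 10 passed the filter on low counts, which left 15757 genes. MMP10, MMP3 and MMP1 were chosen by their higher values in knockdowns in an earlier look at the same libraries. Their differences between genotypes are therefore given as a description, with no test.

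RNA was sequenced from N/TERT-1 cells, an immortalised human keratinocyte line written nTERT-1 in the labels. The 4 genotypes were KAT2AB_KD (both genes knocked down), KAT2A_KD, KAT2B_KD and NT, the reference genotype, and each was sampled when Subconfluent, Confluent and Differentiated. The deposited sample table places Differentiated cells at day 4. There were 2 libraries in each of 12 groups, 24 in all, made from polyadenylated RNA with a directional kit. The meaning of NT is not spelled out in the labels, nor how the knockdowns were made, nor whether libraries of a group came from separate cultures. The p-values therefore measure only the spread between these libraries, which may be technical.

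Matrix metalloproteases are zinc enzymes that are made as inactive precursors and cut collagens, laminins, growth factors and each other once their propeptide is removed. The collagenases MMP1 and MMP13 open fibrillar collagen, the stromelysins MMP3 and MMP10 have broad substrates and activate other family members, and the gelatinases MMP2 and MMP9 degrade denatured collagen and basement membrane collagen IV. MMP14 sits in the plasma membrane and, with TIMP2, activates pro-MMP2. MMP28 (epilysin) is known from intact epidermis. In healing skin, MMP1 is known from keratinocytes that move over dermal collagen, MMP10 from the leading edge and MMP3 from proliferating cells behind it.

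MMP1, MMP3, MMP10 and MMP13 lie in one cluster on chromosome 11. In the RefSeq gene table of GRCh38.p14 its genes follow each other as MMP7, MMP20, MMP27, MMP8, MMP10, WTAPP1, MMP1, MMP3, MMP12 and MMP13. Stromelysin and collagenase promoters are known for an AP-1 site, bound by FOS and JUN proteins, close to a TATA box. RefSeq promoter sequences (GRCh38.p14) were matched for 3 of the 10 genes. The 250 bases before the start are shown for each of these 3, MMP10, MMP14 and TIMP1. No sequence was matched for MMP1 or MMP3, and whether the letters marked below go with a course of expression was not tested. The sequences run 5′ to 3′ on the gene's strand, and capitals mark matches to TGANTCA (a loose AP-1-like pattern, N being any base) and TATAAA, both searched on both strands.
MMP10 (chr11:102780629-102780878, minus strand): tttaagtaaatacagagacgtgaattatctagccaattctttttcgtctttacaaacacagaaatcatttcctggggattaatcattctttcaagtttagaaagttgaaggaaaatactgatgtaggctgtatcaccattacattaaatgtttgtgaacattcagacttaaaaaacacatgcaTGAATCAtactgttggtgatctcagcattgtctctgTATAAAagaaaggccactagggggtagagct
MMP14 (chr14:22836335-22836584, plus strand): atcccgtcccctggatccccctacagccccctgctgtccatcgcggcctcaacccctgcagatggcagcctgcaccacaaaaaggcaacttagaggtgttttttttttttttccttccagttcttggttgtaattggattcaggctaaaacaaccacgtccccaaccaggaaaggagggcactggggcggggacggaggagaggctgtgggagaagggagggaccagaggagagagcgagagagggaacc
TIMP1 (chrX:47582186-47582435, plus strand): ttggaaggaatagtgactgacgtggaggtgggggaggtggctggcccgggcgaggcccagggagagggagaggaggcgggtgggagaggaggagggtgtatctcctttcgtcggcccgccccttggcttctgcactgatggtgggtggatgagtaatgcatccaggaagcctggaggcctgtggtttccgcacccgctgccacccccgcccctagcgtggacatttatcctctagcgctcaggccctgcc
Counting back from the start of the gene, MMP10 held TGAATCA at -67 to -61 and TATAAA at -31 to -26. In the MMP14 and TIMP1 windows neither set of letters was found. Other forms of an AP-1 site, such as TGAGTAA in the TIMP1 window, were not searched, so the windows do not show that a site is absent. Over 35116 RefSeq promoters cut to the same 250 bases, 2308 (6.57%) held TGANTCA and 3763 (10.7%) held TATAAA.

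Library totals ran from 8010178 to 16054003 counts. KAT2A was at 1.67 to 10.4 CPM (read counts scaled to library size with TMM factors, per 1000000 reads) over the 12 KAT2AB_KD and KAT2A_KD libraries, against 9.995 to 38.5 CPM in NT. Against NT of the same stage its decrease passed the test in Subconfluent and Confluent cells of both genotypes, but in Differentiated cells it was not called (adjusted p = 0.144 in KAT2AB_KD and 0.139 in KAT2A_KD, edgeR). KAT2B in Differentiated cells was at 5.85 and 18.9 CPM in KAT2AB_KD and 4.58 and 8.59 CPM in KAT2B_KD, against 44.8 and 40.4 CPM in NT. Both Differentiated decreases passed (adjusted p = 0.0484 and 0.00332, edgeR), while in the earlier stages, where NT held 4.06 to 5.58 CPM, no decrease in KAT2B did. All 12 keratinocyte markers passed the filter, with a summed level of 17152 CPM or more in every library. Of 15 fibroblast markers 7 passed, with sums of 18.6 to 61.1 CPM in KAT2AB_KD, 18.4 to 54.8 CPM in KAT2A_KD, 24.5 to 42.6 CPM in KAT2B_KD and 27.1 to 62.0 CPM in NT. By stage these sums were 25.9 to 42.2 CPM in Subconfluent, 18.4 to 32.8 CPM in Confluent and 39.1 to 62.02 CPM in Differentiated libraries. COL1A1, FAP, FBN1 and TWIST2 had the highest single values of the list (51.1, 29.6, 6.08 and 6.01 CPM). COL3A1, PDGFRA, DCN, LUM, THY1, PRRX1 and POSTN stayed under 10 counts in each library. Of 10 macrophage and leukocyte markers 5 passed, with sums of 42.00 to 110.4 CPM in Differentiated libraries and 16.4 to 27.3 CPM in Confluent and Subconfluent ones, and AIF1, CD163 and TYROBP had no read. Between Differentiated and Confluent cells 4 of the 5 rose in KAT2AB_KD (background 22.6% of all tested genes), 2 in KAT2A_KD (21.4%), 4 in KAT2B_KD (19.3%) and 4 in NT (24.3%), by edgeR at an adjusted p under 0.05, while CD68, CD14 and FCGR3A had the highest single values of the list (60.9, 13.9 and 45.0 CPM). Of 8 melanocyte markers 3 passed, with sums between 4.87 and 17.7 CPM. MITF, PMEL and SOX10 reached up to 11.7, 8.30 and 6.77 CPM, and TYR had no read. The part of other cell types in the results was not tested.

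MMP10, stromelysin 2, was higher in every KAT2AB_KD and KAT2A_KD library than in both NT libraries of the same stage. In KAT2AB_KD it was at 22.6 and 22.8 CPM when Subconfluent, 37.97 and 42.3 CPM when Confluent and 55.5 and 67.3 CPM when Differentiated. In KAT2A_KD the values were 13.1 and 10.2 CPM, 18.4 and 18.3 CPM, and 50.2 and 33.8 CPM at the same stages. KAT2B_KD libraries held 1.98 and 2.16 CPM, 3.64 and 3.47 CPM, and 7.86 and 5.16 CPM, and NT libraries 4.16 and 3.26 CPM, 1.81 and 2.42 CPM, and 6.04 and 5.47 CPM. KAT2B_KD was thus below NT in Subconfluent cells, above it in Confluent cells and overlapping with it in Differentiated cells. As log2 fold changes over NT, KAT2AB_KD stood at 2.60 (SE 0.25), 4.24 (SE 0.27) and 3.41 (SE 0.25) from Subconfluent to Differentiated. KAT2A_KD stood at 1.65, 3.11 and 2.86, and KAT2B_KD at -0.85, 0.74 and 0.17. Without KAT2B_KD Differentiated 1 the last value became -0.15.

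MMP3, stromelysin 1, was also higher in every KAT2AB_KD and KAT2A_KD library than in NT of the same stage. KAT2AB_KD libraries held 6.77 and 7.21 CPM, 12.4 and 9.92 CPM, and 20.6 and 27.4 CPM from Subconfluent to Differentiated. KAT2A_KD libraries held 3.71 and 2.52 CPM, 4.64 and 8.61 CPM, and 22.4 and 12.6 CPM. The levels were 0.380 and 0.588 CPM, 1.11 and 0.772 CPM, and 3.18 and 2.32 CPM in KAT2B_KD, and 1.92 and 0.944 CPM, 0.471 and 0.356 CPM, and 2.54 and 1.32 CPM in NT. The NT Confluent libraries together held 11 reads of MMP3. KAT2B_KD lay below NT in Subconfluent cells, above it in Confluent cells and overlapped it in Differentiated cells. The log2 fold change over NT in Confluent cells was 4.73 (SE 0.50) in KAT2AB_KD, 3.97 (SE 0.51) in KAT2A_KD and 1.20 (SE 0.60) in KAT2B_KD.

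MMP1, the interstitial collagenase, reached its highest group mean in KAT2AB_KD Differentiated cells. At that stage it was at 132.9 and 169.8 CPM in KAT2AB_KD, 93.2 and 72.1 CPM in KAT2A_KD, 15.6 and 11.2 CPM in KAT2B_KD and 16.8 and 14.1 CPM in NT. In Confluent cells the values were 44.4 and 55.03 CPM in KAT2AB_KD, 21.1 and 19.04 CPM in KAT2A_KD, 9.50 and 11.3 CPM in KAT2B_KD and 5.42 and 8.83 CPM in NT. In Subconfluent cells they were 20.4 and 14.9 CPM in KAT2AB_KD, 9.77 and 8.99 CPM in KAT2A_KD, 2.28 and 1.83 CPM in KAT2B_KD and 4.29 and 4.29 CPM in NT. Libraries of KAT2AB_KD and KAT2A_KD were above NT at all 3 stages, while KAT2B_KD was below NT in Subconfluent cells, above it in Confluent cells and overlapping with it in Differentiated cells. The log2 fold change over NT in Differentiated cells was 3.29 (SE 0.26) in KAT2AB_KD, 2.42 (SE 0.25) in KAT2A_KD and -0.21 (SE 0.25) in KAT2B_KD. In bulk RNA of this kind, fewer cells that make a transcript and less of it per cell cannot be told apart.

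**Figure D1:**
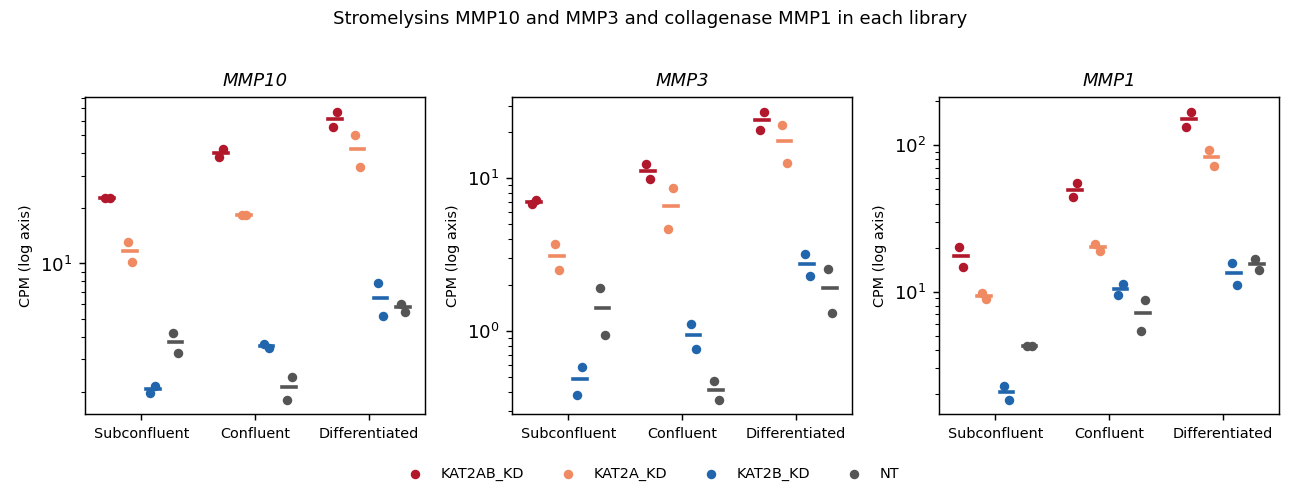
CPM of MMP10, MMP3 and MMP1 on log axes in each library (points) with group means (bars), for KAT2AB_KD, KAT2A_KD, KAT2B_KD and NT at 3 stages. KAT2AB_KD and KAT2A_KD lie above NT at every stage for all 3 genes, and KAT2B_KD lies below NT in Subconfluent cells.

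The 3 genes share a locus with WTAPP1, a transcribed pseudogene that runs over MMP1, MMP3 and MMP10 on the opposite strand in the GENCODE annotation. The strand setting of the counting is not given in the sources used here, so reads in the overlaps could be counted for either gene. WTAPP1 was at 13.8 and 15.1 CPM in KAT2AB_KD, 11.4 and 9.79 CPM in KAT2A_KD, 5.71 and 3.29 CPM in KAT2B_KD and 5.43 and 4.05 CPM in NT Differentiated cells. Over NT it was called higher there in KAT2AB_KD (log2 1.60, SE 0.26, adjusted p = 0.00228, edgeR) and KAT2A_KD (log2 1.16, SE 0.26, adjusted p = 0.0353, edgeR). In Confluent cells WTAPP1 was at 10.1 and 10.8 CPM in KAT2AB_KD, 6.25 and 5.70 CPM in KAT2A_KD, 6.97 and 7.91 CPM in KAT2B_KD and 6.75 and 6.62 CPM in NT. In Subconfluent cells all 8 WTAPP1 values lay between 5.04 and 6.70 CPM. Its part in the MMP1, MMP3 and MMP10 counts was not tested. In the same annotation TIMP1 overlaps SYN1, and MMP28 overlaps TAF15 and C17orf50, on the opposite strand, and TIMP2 overlaps CEP295NL, which had 0 reads in all 24 libraries, on the same strand and the antisense genes AC022966.1 and AC100788.1 on the opposite strand. MMP2 overlaps MMP2-AS1 and MMP9 overlaps SLC12A5-AS1, also on the opposite strand. Of these 4 antisense genes none is a row of the count table used here under that name. These overlaps are of whole gene spans, introns included. Counts of TIMP2, TIMP1, MMP28, MMP2 and MMP9 may therefore carry a like uncertainty about strand. SYN1 reached 2.12 CPM at most, and TAF15 ran from 9.31 to 58.8 CPM. The part of these neighbours in the counts was not tested.

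Between Confluent and Differentiated cells most of the 10 genes were called in every genotype, as were 39.6% to 50.4% of all genes tested. At an adjusted p under 0.05 (edgeR's quasi-likelihood test, Benjamini-Hochberg over all genes tested), 8 of 10 genes changed between Differentiated and Confluent cells in KAT2AB_KD, where 46.2% of all tested genes did. The counts were 7 of 10 in KAT2A_KD (background 43.1%), 8 of 10 in KAT2B_KD (background 39.6%) and 8 of 10 in NT (background 50.4%). Of these, 7 rose and 1 fell in KAT2AB_KD (background 22.6% and 23.6%), 7 and 0 in KAT2A_KD (21.4% and 21.7%), 5 and 3 in KAT2B_KD (19.3% and 20.3%) and 7 and 1 in NT (24.3% and 26.1%). MMP13, MMP9, MMP28, MMP10 and MMP3 rose in all 4 genotypes. The choice of MMP10, MMP3 and MMP1 rested on comparisons between genotypes, but the same libraries enter these stage tests. The stage p-values of these 3 genes, and the counts out of 10 that include them, are therefore not independent of that choice. Apart from these 3, the genes called were MMP13, MMP9, MMP28 and TIMP2 in KAT2A_KD, and those with MMP14 in NT. Whether the rest of the family was called more often than all genes was not tested. Between Confluent and Subconfluent cells fewer genes were called, with 1 of 10 in KAT2AB_KD (background 0.609%), 0 in KAT2A_KD (0.235%), 1 in KAT2B_KD (1.61%) and 1 in NT (0.901%). In KAT2A_KD 6 of the 10 had an unadjusted p under 0.05 by edgeR in that step, and DESeq2 called 2.

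MMP10 rose between Confluent and Differentiated cells by a log2 fold change of 0.61 in KAT2AB_KD (SE 0.22, adjusted p = 0.0300), 1.19 in KAT2A_KD (SE 0.23, adjusted p = 3.12e-04), 0.86 in KAT2B_KD (SE 0.26, adjusted p = 0.0140) and 1.44 in NT (SE 0.28, adjusted p = 2.57e-04). MMP3 rose by 1.10 in KAT2AB_KD (adjusted p = 0.0164), 1.41 in KAT2A_KD (0.00456), 1.51 in KAT2B_KD (0.0164) and 2.21 in NT (0.00243). MMP1 rose by 1.61 in KAT2AB_KD (adjusted p = 1.56e-05), 2.04 in KAT2A_KD (1.46e-06) and 1.12 in NT (0.00117), while its value of 0.37 in KAT2B_KD (SE 0.25) was not called (0.262). One step earlier, both Confluent libraries lay above both Subconfluent libraries for MMP1 in every genotype. That step was called in KAT2B_KD, by 2.34 (SE 0.29, adjusted p = 1.10e-04, edgeR), and in KAT2AB_KD, by 1.497 (SE 0.24, adjusted p = 0.00396, edgeR). The first of these calls held without each library, and the second was lost without Confluent 2 (0.0506) or Subconfluent 2 (0.157) and in a fit of those groups alone (0.0734). The MMP10 call was lost in KAT2AB_KD without Confluent 1 (0.136), Confluent 2 (0.0646) or Differentiated 2 (0.187) and in KAT2B_KD without Confluent 1 (0.0596), Confluent 2 (0.0677) or Differentiated 1 (0.149). The MMP3 call was lost in KAT2AB_KD without Confluent 2 (0.113) or Differentiated 2 (0.119), in KAT2A_KD without Confluent 1 (0.0919) or Differentiated 1 (0.103), in KAT2B_KD without Confluent 2 (0.104) or Differentiated 1 (0.0829) and in NT without Differentiated 1 (0.0553). In fits of the compared groups alone the MMP10 calls in KAT2AB_KD (0.111) and KAT2B_KD (0.114) and the MMP3 call in KAT2B_KD (0.0899) were lost, and the MMP10 call in KAT2AB_KD was also lost without a filter on low counts (0.0564).

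**Figure D2:**
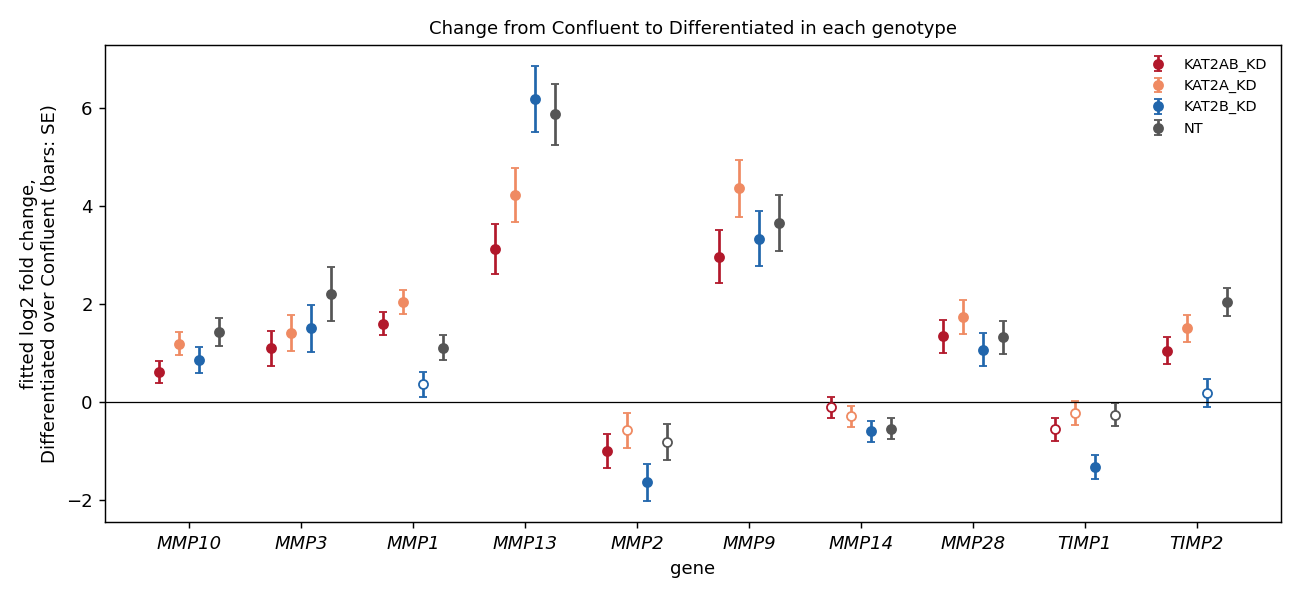
Fitted log2 fold change of Differentiated over Confluent cells (bars are SE) for 10 genes in KAT2AB_KD, KAT2A_KD, KAT2B_KD and NT; filled points passed an adjusted p of 0.05 over all genes and open points did not. MMP13 and MMP9 have the highest values in each genotype, and TIMP2 in KAT2B_KD lies at 0.19.

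MMP13, the other collagenase, was low before differentiation and rose steeply with it. KAT2AB_KD libraries held 1.72 and 1.44 CPM, 6.93 and 7.56 CPM, and 83.1 and 42.7 CPM from Subconfluent to Differentiated, and KAT2A_KD libraries 0.680 and 0.672 CPM, 3.68 and 6.46 CPM, and 110.4 and 76.97 CPM. The values were 0.152 and 0.457 CPM, 0.890 and 0.482 CPM, and 79.2 and 24.96 CPM in KAT2B_KD, and 0.132 and 0 CPM, 0.550 and 1.71 CPM, and 94.6 and 40.5 CPM in NT. In Differentiated cells each knockdown overlapped NT. The log2 fold change of Differentiated over Confluent cells was 3.12 in KAT2AB_KD (SE 0.51, adjusted p = 5.25e-05), 4.23 in KAT2A_KD (SE 0.55, 3.85e-06), 6.18 in KAT2B_KD (SE 0.67, 4.51e-07) and 5.87 in NT (SE 0.63, 2.30e-07). Subconfluent NT cells held 2 reads in all, so no fold is given against them.

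In Confluent cells MMP13 was higher in KAT2AB_KD than in NT (log2 2.65, SE 0.62, adjusted p = 0.0244) and than in KAT2B_KD (log2 3.34, SE 0.68, adjusted p = 0.0109). Both KAT2AB_KD libraries lay above all 4 libraries of KAT2B_KD and NT. The KAT2A_KD value over NT, 2.11 (SE 0.64), was not called (adjusted p = 0.240). The call over NT was lost without KAT2AB_KD Confluent 1 (0.0903), KAT2AB_KD Confluent 2 (0.0715), NT Confluent 1 (0.329) or NT Confluent 2 (0.0560), and that over KAT2B_KD without KAT2B_KD Confluent 1 (0.120) or KAT2B_KD Confluent 2 (0.157). The change from Confluent to Differentiated was smaller in KAT2AB_KD than in NT by 2.75 on the log2 scale (SE 0.77), a difference that was not called (adjusted p = 0.0975).

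Of the gelatinases, MMP9 rose with differentiation in all 4 genotypes, while a fall of MMP2 was called in KAT2AB_KD and KAT2B_KD. In KAT2A_KD both Differentiated libraries also lay below both Confluent ones for MMP2. The difference from NT in the MMP2 change was not called in any knockdown. MMP9 was at 17.2 and 29.5 CPM in KAT2AB_KD, 52.1 and 43.6 CPM in KAT2A_KD, 40.03 and 19.95 CPM in KAT2B_KD and 36.6 and 21.03 CPM in NT Differentiated cells. In Confluent cells it was at 0.864 to 4.82 CPM over all 8 libraries, below every Differentiated library. The summed macrophage and leukocyte markers were likewise higher in every Differentiated library (42.00 to 110.4 CPM) than in every Confluent one (17.4 to 27.3 CPM). Of that list CD68 and FCGR3A reached the highest single values (60.9 and 45.0 CPM). AIF1, CD163 and TYROBP had no read, LYZ had 4 reads in all and PTPRC had at most 16 in a library. The part of other cell types in the MMP9 values was not tested. MMP9 rose by 2.97 in KAT2AB_KD (adjusted p = 1.48e-04), 4.36 in KAT2A_KD (5.51e-06), 3.34 in KAT2B_KD (7.77e-05) and 3.66 in NT (2.16e-05) on the log2 scale. MMP2 was at 6.10 and 9.05 CPM in KAT2AB_KD, 8.35 and 5.48 CPM in KAT2A_KD, 3.27 and 3.06 CPM in KAT2B_KD and 5.69 and 3.02 CPM in NT Differentiated cells, and at 17.3 and 12.7 CPM in KAT2AB_KD, 11.9 and 8.61 CPM in KAT2A_KD, 10.7 and 8.87 CPM in KAT2B_KD and 10.2 and 5.20 CPM in NT Confluent cells. MMP2 fell by 1.63 in KAT2B_KD between these stages (SE 0.37, adjusted p = 0.00172) and by 0.99 in KAT2AB_KD (SE 0.34, adjusted p = 0.0231), where the call was lost without Confluent 1 (0.152) or Differentiated 1 (0.189) and in a fit of those groups alone (0.0605). The log2 values of -0.57 in KAT2A_KD (adjusted p = 0.201) and -0.81 in NT (0.0716) were not called. Subconfluent cells held 31.5 and 27.6 CPM of MMP2 in KAT2AB_KD, 15.1 and 23.9 CPM in KAT2A_KD, 13.7 and 17.96 CPM in KAT2B_KD and 21.7 and 23.96 CPM in NT. In all 4 genotypes these values lay above both Confluent libraries. Whether this earlier fall differed between genotypes was not tested. It was called only in NT (log2 -1.57, SE 0.34, adjusted p = 0.0275, edgeR). That call was lost without Confluent 2 (0.356), Subconfluent 1 (0.120) or Subconfluent 2 (0.140).

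For MMP14, the membrane-type protease, KAT2AB_KD libraries held 153.8 and 203.5 CPM, 121.5 and 106.3 CPM, and 95.3 and 117.1 CPM from Subconfluent to Differentiated, and KAT2A_KD libraries 149.2 and 198.1 CPM, 120.3 and 148.1 CPM, and 117.7 and 102.4 CPM. KAT2B_KD libraries held 189.4 and 270.7 CPM, 180.1 and 183.2 CPM, and 114.1 and 126.9 CPM, and NT libraries 275.2 and 293.2 CPM, 195.2 and 179.6 CPM, and 135.9 and 122.8 CPM. MMP14 fell between Confluent and Differentiated cells in KAT2B_KD (log2 -0.59, SE 0.21, adjusted p = 0.0305) and NT (log2 -0.54, SE 0.21, adjusted p = 0.0396). Both calls were lost without any 1 of the 4 libraries (0.0705 to 0.181 in KAT2B_KD and 0.0719 to 0.223 in NT), and without a filter on low counts (0.0597 and 0.0835). That in KAT2B_KD was also lost in a fit of those groups alone (0.125), and that in NT with RLE size factors (0.0632). Both KAT2AB_KD and KAT2A_KD libraries lay below NT in Subconfluent and Confluent cells, without a call. In Subconfluent cells the log2 fold change over NT was -0.67 in KAT2AB_KD (adjusted p = 0.0997) and -0.71 in KAT2A_KD (0.258), and in Confluent cells it was -0.72 (0.0855) and -0.48 (0.562).

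MMP28, epilysin, rose with differentiation in all 4 genotypes. It was at 17.1 and 28.1 CPM in KAT2AB_KD, 23.1 and 34.8 CPM in KAT2A_KD, 27.6 and 33.4 CPM in KAT2B_KD and 40.3 and 39.5 CPM in NT Differentiated cells, and at 8.94 and 8.88 CPM in KAT2AB_KD, 7.21 and 10.2 CPM in KAT2A_KD, 12.6 and 16.4 CPM in KAT2B_KD and 14.4 and 17.4 CPM in NT Confluent cells. The log2 fold change between these stages was 1.35 in KAT2AB_KD (adjusted p = 0.00277), 1.74 in KAT2A_KD (4.12e-04), 1.08 in KAT2B_KD (0.0145) and 1.32 in NT (0.00250). The KAT2AB_KD call was lost without Differentiated 2 (0.0598), and the KAT2B_KD call without Confluent 1 (0.126) or Differentiated 2 (0.0823). All 6 knockdown libraries lay below both NT libraries in Differentiated cells, with log2 fold changes over NT of -0.82 in KAT2AB_KD (adjusted p = 0.210), -0.46 in KAT2A_KD (0.611) and -0.39 in KAT2B_KD (0.589), none of them called.

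TIMP2, the inhibitor that also takes part in MMP2 activation, rose with differentiation in KAT2AB_KD, KAT2A_KD and NT. Differentiated cells held 32.3 and 34.99 CPM in KAT2AB_KD, 35.9 and 21.5 CPM in KAT2A_KD, 5.33 and 9.64 CPM in KAT2B_KD and 44.3 and 34.7 CPM in NT. Confluent cells held 15.6 and 16.8 CPM in KAT2AB_KD, 12.01 and 8.07 CPM in KAT2A_KD, 6.83 and 6.37 CPM in KAT2B_KD and 7.93 and 11.2 CPM in NT, and Subconfluent cells 24.7 and 21.7 CPM in KAT2AB_KD, 17.01 and 17.05 CPM in KAT2A_KD, 10.04 and 11.1 CPM in KAT2B_KD and 18.1 and 18.7 CPM in NT. Both KAT2B_KD libraries lay below every library of the other genotypes at each stage. From Confluent to Differentiated TIMP2 rose by 1.05 in KAT2AB_KD (SE 0.27, adjusted p = 0.00327), 1.51 in KAT2A_KD (SE 0.28, adjusted p = 2.21e-04) and 2.05 in NT (SE 0.28, adjusted p = 5.55e-06). Its value in KAT2B_KD was 0.19 (SE 0.29, adjusted p = 0.646), with overlapping stages. The difference between KAT2B_KD and NT in this change was itself called, at -1.85 (SE 0.40, adjusted p = 0.0364). It was lost in a fit of those 8 libraries alone (0.0967) and without any 1 of them other than KAT2B_KD Differentiated 2 (0.0898 to 0.134).

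In Differentiated cells TIMP2 was 5.24-fold lower in KAT2B_KD than in NT (log2 -2.39, SE 0.29, adjusted p = 8.04e-05), and the call held without each of the 4 libraries. TIMP2 was also higher in KAT2AB_KD than in KAT2B_KD (log2 2.16, SE 0.29, adjusted p = 8.42e-05) and in KAT2A_KD than in KAT2B_KD (log2 1.93, SE 0.29, adjusted p = 6.62e-04) at that stage. These 3 comparisons share the KAT2B_KD libraries. KAT2AB_KD exceeded KAT2B_KD in Confluent (log2 1.29, SE 0.29, adjusted p = 0.0219) and Subconfluent cells (log2 1.13, SE 0.27, adjusted p = 0.0284) as well. Both of these calls were lost without any 1 of the 4 libraries (0.0787 to 0.192 and 0.0911 to 0.267), and that in Confluent cells also in a fit of those groups alone (0.0534).

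TIMP1, a secreted inhibitor of most soluble metalloproteases, was at 73.9 and 51.9 CPM in KAT2AB_KD, 89.9 and 64.7 CPM in KAT2A_KD, 51.4 and 35.9 CPM in KAT2B_KD and 77.4 and 67.8 CPM in NT Differentiated cells, and at 84.9 and 99.1 CPM in KAT2AB_KD, 107.2 and 72.3 CPM in KAT2A_KD, 115.2 and 102.8 CPM in KAT2B_KD and 89.4 and 83.9 CPM in NT Confluent cells. It fell between these stages in KAT2B_KD (log2 -1.32, SE 0.24, adjusted p = 2.01e-04). In the other genotypes the log2 values were -0.55 in KAT2AB_KD (adjusted p = 0.0646), -0.22 in KAT2A_KD (0.491) and -0.26 in NT (0.387), none of them called. Both KAT2B_KD libraries lay below NT in Differentiated cells, without passing the test (log2 -0.73, SE 0.24, adjusted p = 0.0870). The difference between KAT2B_KD and NT in the stage change was -1.07 (SE 0.34, adjusted p = 0.163).

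**Figure D3:**
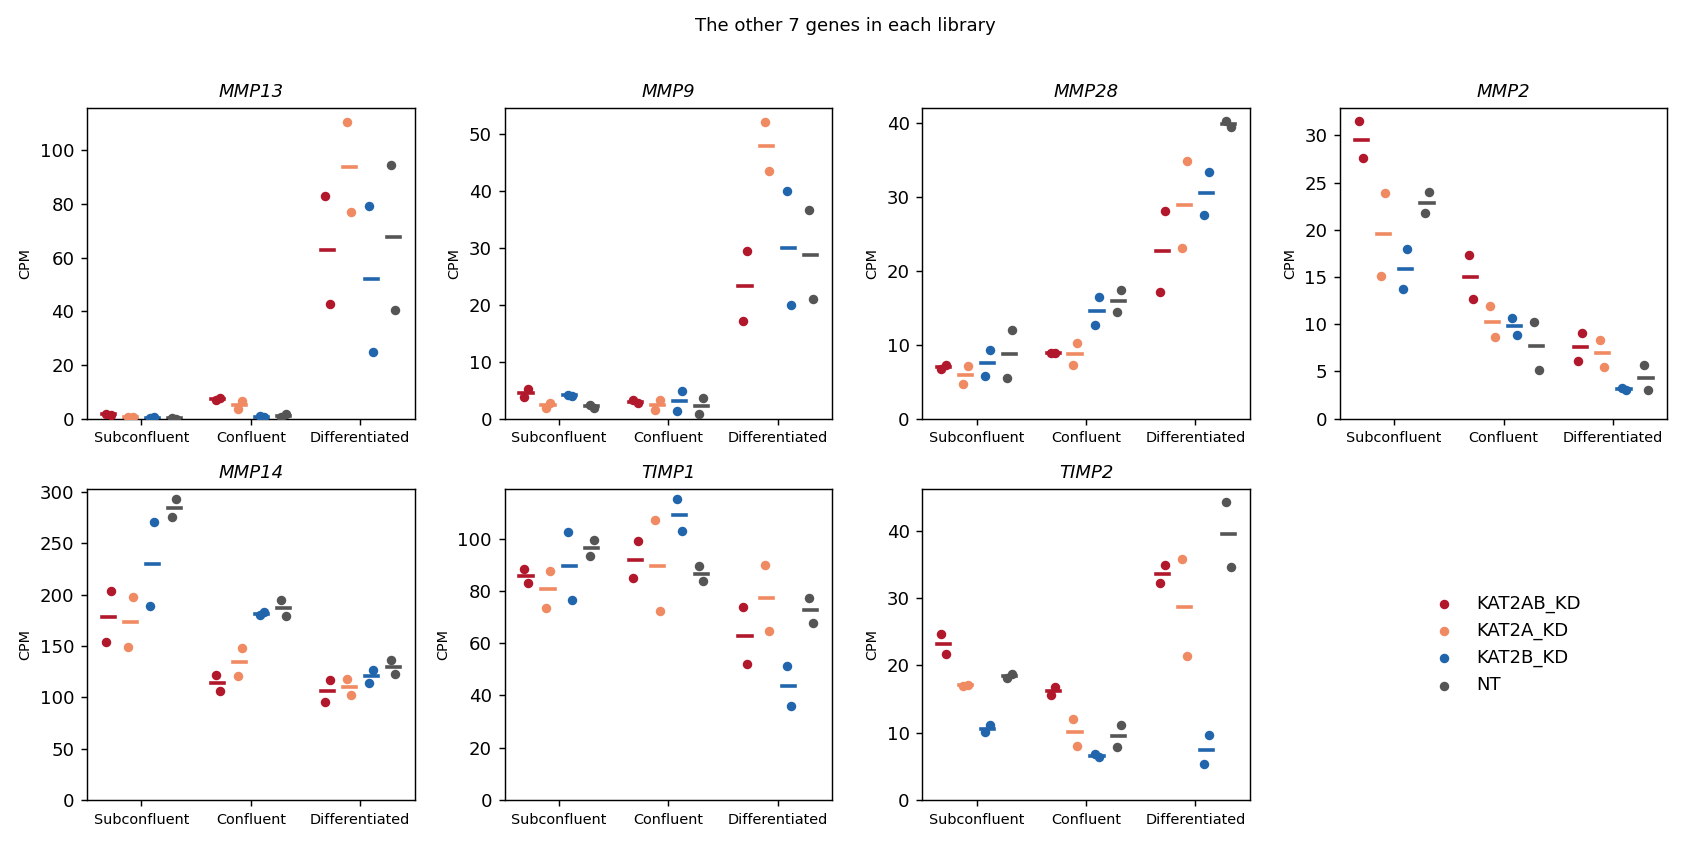
CPM of MMP13, MMP9, MMP28, MMP2, MMP14, TIMP1 and TIMP2 in each library (points) with group means (bars), for KAT2AB_KD, KAT2A_KD, KAT2B_KD and NT at 3 stages. TIMP2 in KAT2B_KD Differentiated cells, at 5.33 and 9.64 CPM, lies below the other genotypes of that stage.

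Apart from MMP10, MMP3 and MMP1, few genes of the family were called between knockdowns and NT. Of the 7 tested, 0 were called in KAT2AB_KD Subconfluent cells (background 2.70%), 1 in Confluent cells (2.28%, MMP13) and 0 in Differentiated cells (2.74%). KAT2A_KD gave 0, 0 and 0 calls at these stages (background 0.343%, 0.647% and 1.22%), and KAT2B_KD 0, 0 and 1 (background 0.0888%, 0.463% and 4.85%), the call being TIMP2. In comparisons where edgeR called 0, the number with an unadjusted p under 0.05 was 2 and 2 in KAT2AB_KD Subconfluent and Differentiated cells, 2, 3 and 0 in KAT2A_KD at the 3 stages, and 1 and 0 in KAT2B_KD Subconfluent and Confluent cells. DESeq2 called 2 and 0, then 0, 1 and 0, then 0 and 0 in the same comparisons.

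Between knockdowns, KAT2AB_KD against KAT2A_KD gave 0, 0 and 0 calls of 7 from Subconfluent to Differentiated (background 0%, 0.00635% and 0.317%) by edgeR, with 0, 1 and 1 at an unadjusted p under 0.05, and DESeq2 called 0, 0 and 0. KAT2AB_KD against KAT2B_KD gave 1 (background 2.61%), 2 (1.61%) and 2 (11.0%), which were TIMP2 at all 3 stages, MMP13 in Confluent cells and MMP2 in Differentiated cells. MMP2 was at 6.10 and 9.05 CPM in KAT2AB_KD and 3.27 and 3.06 CPM in KAT2B_KD there (log2 1.26, SE 0.38, adjusted p = 0.0351), a call lost without KAT2AB_KD Differentiated 2 (0.227), KAT2B_KD Differentiated 1 (0.159) or KAT2B_KD Differentiated 2 (0.109) and in a fit of those groups alone (0.174). KAT2A_KD against KAT2B_KD gave 0 (background 0.533%), 0 (0.286%) and 1 (2.38%), the last being TIMP2. In its Subconfluent and Confluent comparisons 1 and 3 genes had an unadjusted p under 0.05 by edgeR, and DESeq2 called 0 and 1. For the difference from NT in the change from Confluent to Differentiated, KAT2AB_KD and KAT2A_KD gave 0 and 0 calls of 7 by edgeR (background 1.33% and 0.616%), with 2 and 0 at an unadjusted p under 0.05 and 1 and 0 called by DESeq2. KAT2B_KD gave 1, TIMP2 (background 0.888%).

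**Figure D4:**
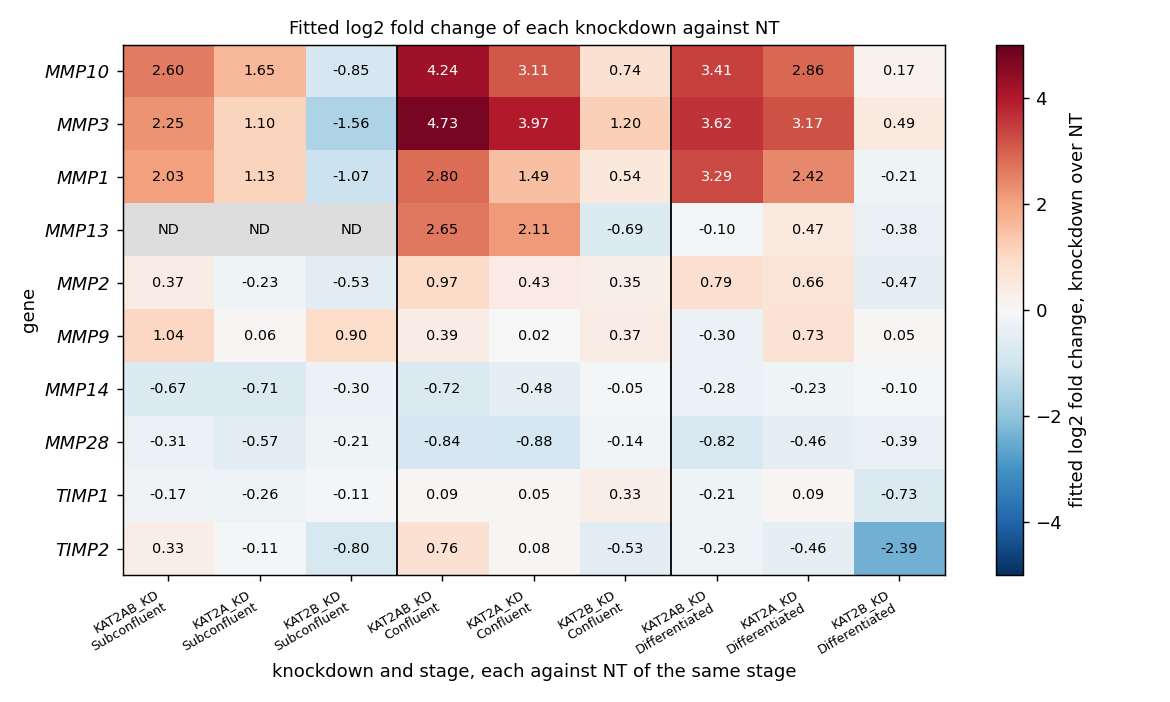
Fitted log2 fold change of KAT2AB_KD, KAT2A_KD and KAT2B_KD over NT of the same stage (columns) for 10 genes (rows); ND marks MMP13 in Subconfluent cells, where NT held 2 reads. MMP10, MMP3 and MMP1 in KAT2AB_KD run from 2.03 to 4.73, and TIMP2 in KAT2B_KD Differentiated cells is at -2.39.

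MMP10 and MMP3 followed each other across the 12 groups. Over group means of log2 CPM their Pearson r was 0.99 and Spearman's rho 0.99, and each was the other's nearest gene among 12562 compared. Nearest to MMP1 were PTGS1, the cyclooxygenase (r = 0.93), CCNA1, a cyclin (0.92), TMEM9 (0.92), MMP3 (0.91) and MMP10 (0.91). The order depended on the measure: by Spearman's rho 3 of these 5 were among the nearest 5, with MMP10 at rank 9 and MMP3 at rank 12, and by Pearson's r over the 24 libraries 4 were, with TMEM9 at rank 19. PTGS1 was also second nearest to MMP3 (r = 0.92) and MMP10 (0.93) over the 12 groups, and at rank 3 for both over the 24 libraries. PTGS1 averaged 37.9 ± 7.52 CPM in KAT2AB_KD, 26.3 ± 1.92 CPM in KAT2A_KD, 12.2 ± 4.25 CPM in KAT2B_KD and 15.3 ± 2.29 CPM in NT Differentiated cells (SD, n = 2). MMP14 ran the other way, with r = -0.86 to MMP1 and -0.92 to MMP13. These values describe 12 points that share stages and knockdowns, and they carry no test. MMP10, MMP3 and MMP1 were chosen for higher values in the same knockdown libraries, so likeness among them is not independent of that choice. How reads with several matches were counted is not given, and their part in it was not tested.

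Of 15 other matrix metalloproteases 7 passed the filter, and in their 63 tests of a knockdown against NT edgeR made 0 calls, with 5 at an unadjusted p under 0.05 and 1 called by DESeq2. Over all genes tested, 0.0888% to 4.85% were called in these comparisons, so 0 calls do not set this list apart. This list and those that follow were chosen with earlier results of these data known. The genes named from them were taken from those with the lowest p. Their counts and p-values are therefore a description and not independent of that choice. MMP17, a membrane-anchored protease, fell with differentiation in NT by 2.56 on the log2 scale (SE 0.48, adjusted p = 1.78e-04), and the NT call held without each library. MMP17 was also called lower in KAT2AB_KD (log2 -1.42, SE 0.48, adjusted p = 0.0194) and KAT2A_KD (log2 -1.25, SE 0.47, adjusted p = 0.0378). KAT2B_KD held 5.64 and 7.04 CPM when Confluent and 3.18 and 3.14 CPM when Differentiated, without a call. No knockdown was called different from NT in this change. Of 8 further inhibitors 5 passed, and against NT 1 rose at each stage in KAT2AB_KD (background 1.86%, 1.39% and 1.57% from Subconfluent to Differentiated). TIMP3, the matrix-bound inhibitor, was at 50.6 and 62.3 CPM in KAT2AB_KD and 36.8 and 31.8 CPM in NT Differentiated cells (log2 0.72, SE 0.17, adjusted p = 0.0238), a call lost without KAT2AB_KD Differentiated 2, NT Differentiated 1 or NT Differentiated 2 (adjusted p up to 0.235). SPOCK1, a testican proteoglycan, rose in KAT2AB_KD Confluent cells, with 7.88 and 7.98 CPM against 1.57 and 2.56 CPM in NT (log2 1.93, SE 0.33, adjusted p = 0.00210), a call lost without NT Confluent 1 (0.0711).

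Of 18 genes for plasminogen activation and metalloprotease processing 15 passed. Against NT, 2 rose and 2 fell in KAT2AB_KD Subconfluent cells (background 1.86% and 0.838%), 2 and 0 in Confluent cells (1.39% and 0.888%), and 2 and 0 in Differentiated cells (1.57% and 1.17%). In KAT2A_KD 0, 1 and 1 rose and 0 fell from Subconfluent to Differentiated (background 0.343%, 0.647% and 1.22% in either direction). In KAT2B_KD Differentiated cells 1 rose and 5 fell (1.67% and 3.18%), with a median log2 fold change of -0.43, beside 0.02 over all genes tested. KLK6, a kallikrein peptidase, was at 7.14 and 10.8 CPM in KAT2AB_KD and 0.864 and 1.21 CPM in NT Confluent cells (log2 3.09, SE 0.49, adjusted p = 8.89e-04). KAT2A_KD Confluent cells held 5.29 and 5.38 CPM of KLK6, also called over NT (log2 2.34, SE 0.51, adjusted p = 0.0343). In Differentiated cells KLK6 was at 3.46 and 3.74 CPM in KAT2B_KD and 22.4 and 35.5 CPM in NT (log2 -3.003, SE 0.43, adjusted p = 3.94e-04). PCSK6, a proprotein convertase, was at 9.62 and 8.72 CPM in KAT2AB_KD and 2.91 and 1.55 CPM in NT Subconfluent cells (log2 2.01, SE 0.31, adjusted p = 8.39e-04). In Differentiated cells it was at 89.98 and 66.6 CPM in KAT2B_KD and 231.0 and 176.6 CPM in NT (log2 -1.38, SE 0.25, adjusted p = 0.00326). The KAT2AB_KD and KAT2B_KD calls of KLK6 and PCSK6 given here held without each library. PLAT, tissue plasminogen activator, was at 3.87 and 1.06 CPM in KAT2AB_KD, 0.491 and 0.898 CPM in KAT2A_KD and 0.561 and 0.747 CPM in KAT2B_KD, while both NT Differentiated libraries had 0 reads, so no fold is given.

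Of 27 matrix substrates 22 passed. In KAT2AB_KD 3 rose and 0 fell against NT at each stage (background 1.86%, 1.39% and 1.57% higher), and in KAT2B_KD Differentiated cells 0 rose and 6 fell (background 1.67% and 3.18%), with a list median of -0.59, beside 0.02 over all genes tested. In KAT2A_KD 0, 2 and 0 rose and 0 fell from Subconfluent to Differentiated (background 0.343%, 0.647% and 1.22% in either direction), the 2 being TNC and ECM1. TNC, the glycoprotein tenascin-C, was at 265.3 and 240.7 CPM in KAT2AB_KD and 65.01 and 47.6 CPM in NT Subconfluent cells (log2 2.17, SE 0.30, adjusted p = 2.53e-04). In Confluent cells TNC was at 292.3 and 174.3 CPM in KAT2AB_KD and 60.1 and 59.4 CPM in NT (log2 1.96, SE 0.30, adjusted p = 5.96e-04). ECM1, a glycoprotein of skin matrix, was at 9.99 and 7.56 CPM in KAT2AB_KD and 1.88 and 2.21 CPM in NT Confluent cells (log2 2.10, SE 0.28, adjusted p = 1.58e-04). KAT2A_KD Confluent cells held 166.2 and 178.0 CPM of TNC (log2 1.52 over NT, SE 0.29, adjusted p = 0.0140). They held 5.93 and 5.38 CPM of ECM1 (log2 1.46 over NT, SE 0.28, adjusted p = 0.0157). THBS1, thrombospondin, was higher in KAT2AB_KD than in KAT2B_KD Differentiated cells (log2 2.17, SE 0.25, adjusted p = 2.19e-05). The KAT2AB_KD calls of TNC, ECM1 and THBS1 given here held without each library.

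Of 12 docking and clearance genes 11 passed. CLDN1, the tight junction protein claudin-1, was at 9.42 and 9.03 CPM in KAT2AB_KD, 6.12 and 7.89 CPM in KAT2A_KD, 1.52 and 1.44 CPM in KAT2B_KD and 5.95 and 6.01 CPM in NT Subconfluent cells. KAT2AB_KD exceeded KAT2B_KD by 2.63 (SE 0.27, adjusted p = 7.74e-06) and KAT2A_KD exceeded it by 2.23 (SE 0.28, adjusted p = 2.88e-04) on the log2 scale, and both calls held without each library. Of 31 ADAM and ADAMTS proteases 17 passed, and against NT 1 fell in KAT2AB_KD Subconfluent cells (background 0.838%), 1 in KAT2AB_KD Confluent cells (0.888%) and 2 in KAT2B_KD Differentiated cells (3.18%). ADAMTS7 was among the last (log2 -1.72, SE 0.38, adjusted p = 0.00999), a call lost without KAT2B_KD Differentiated 1 or NT Differentiated 1 (up to 0.127).

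Of 22 AP-1, ETS and NF-kB regulators, which include factors known to act at stromelysin promoters, 21 passed. Against NT, 1, 0 and 1 were called in KAT2AB_KD from Subconfluent to Differentiated (background 2.70%, 2.28% and 2.74%). KAT2A_KD gave 0, 0 and 1 (0.343%, 0.647% and 1.22%), and KAT2B_KD 0, 0, and then 1 higher and 1 lower (0.0888%, 0.463% and 4.85%). Each call higher was FOS, in KAT2AB_KD Subconfluent cells by 1.80 on the log2 scale (SE 0.43, adjusted p = 0.0260). FOS, an AP-1 subunit, was at 9.39 and 15.4 CPM in KAT2AB_KD, 11.6 and 10.9 CPM in KAT2A_KD, 6.45 and 17.8 CPM in KAT2B_KD and 1.84 and 3.21 CPM in NT Differentiated cells. It rose there in KAT2AB_KD (log2 2.30, adjusted p = 0.0102), KAT2A_KD (log2 2.16, adjusted p = 0.0221) and KAT2B_KD (log2 2.28, adjusted p = 0.00462), against the same NT libraries. The KAT2AB_KD call was lost without KAT2AB_KD Differentiated 2, NT Differentiated 1 or NT Differentiated 2 (up to 0.108), the KAT2A_KD call without any 1 of the 4 libraries (0.0670 to 0.194), and the KAT2B_KD call without KAT2B_KD Differentiated 2 or NT Differentiated 1 (up to 0.0982). FOSL1, another AP-1 subunit, fell in KAT2B_KD Differentiated cells (log2 -1.10, SE 0.30, adjusted p = 0.0368), a call lost without KAT2B_KD Differentiated 1, NT Differentiated 1 or NT Differentiated 2 (up to 0.303).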

How the data were processed

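RNA-seq libraries of N/TERT-1 keratinocytes (4 genotypes at 3 stages, 2 libraries each) were analysed from raw counts per gene that the authors deposited. Reads had been processed with FastQC, Bowtie2 and featureCounts on build hg19, per the submitters' processing notes, which also name DESeq2. Versions, annotation, strand setting and the treatment of reads with several matches are not given in the sources used here. The deposited sample table numbers the libraries of a group 2 and 3, written here as 1 and 2. A further count column that matched no sample was not used, and the authors' normalised table was not used. Among the symbols, 28 had become dates, none of them a gene discussed here.

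Counts were tested with edgeR 4.0.16 in R 4.3.3, by its quasi-likelihood test with TMM factors and filterByExpr by group, over all 24 libraries in 12 groups. Adjusted p are Benjamini-Hochberg values over the 15757 genes tested in each of 29 comparisons, with a threshold of 0.05. Every adjusted p in the results comes from this fit unless DESeq2 is named. CPM are TMM-scaled. Library totals of 8010178 to 16054003 counts limit the precision of genes with few reads. The fit was tested on simulated data before use.

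Alternatives were RLE size factors, no filter on low counts, DESeq2 1.42.0, a fit of the compared groups alone, a replicate block and leaving out each library. The members and the lists were chosen with earlier results of these data known. The lists were other metalloproteases, further inhibitors, ADAM and ADAMTS proteases, plasminogen activation and processing, docking and clearance, matrix substrates, and AP-1, ETS and NF-kB regulators, beside markers of keratinocytes, fibroblasts, leukocytes and melanocytes. Named from each list were up to 4 genes per family of comparisons with the lowest p among those called, and near each of MMP1, MMP3 and MMP10 the 5 genes with the highest r (log2 CPM with a prior count of 2, mean of at least 1).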

Additional observations from a re-analysis of the deposited data

Results flagged for a closer look

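Of the 7 genes tested, 1, TIMP2, had a response to differentiation that differed between genotypes by a test of the difference itself, where 0.888% of all tested genes were called. Its log2 change from Confluent to Differentiated was 0.19 in KAT2B_KD (SE 0.29) and 2.05 in NT (SE 0.28), a difference of -1.85 (SE 0.40, adjusted p = 0.0364, edgeR). All 4 KAT2B_KD libraries of these stages held 5.33 to 9.64 CPM, while both NT libraries were higher in Differentiated cells (44.3 and 34.7 CPM) than in Confluent cells (7.93 and 11.2 CPM). The call was lost in a fit of these 8 libraries alone (adjusted p = 0.0967, edgeR) and without any 1 of them other than KAT2B_KD Differentiated 2 (0.0898 to 0.134).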

How the results depend on the processing

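RLE size factors changed the number of genes called in none of the 29 comparisons by over 1.5 times. Without a filter on low counts 2 genes were called between Confluent and Subconfluent cells in KAT2AB_KD, 2 in KAT2A_KD and 4 in NT. Against NT the same setting gave 1 in KAT2AB_KD and 1 in KAT2A_KD Subconfluent cells, 2 in KAT2AB_KD and 1 in KAT2A_KD Confluent cells, and 2 in KAT2B_KD Differentiated cells. It gave 2 for KAT2AB_KD against KAT2B_KD in Subconfluent cells, 1 for KAT2A_KD against KAT2B_KD in Confluent and 4 in Differentiated cells, 1 for KAT2AB_KD against KAT2A_KD in Differentiated cells, and 1 each for the difference from NT in the stage change of KAT2AB_KD and KAT2A_KD. DESeq2 called 3 in KAT2AB_KD, 2 in KAT2A_KD and 2 in NT between Confluent and Subconfluent cells. Against NT it called 2 in KAT2AB_KD Subconfluent and Confluent cells, 1 in KAT2A_KD Confluent cells and 2 in KAT2B_KD Differentiated cells. It called 2 for KAT2AB_KD against KAT2B_KD in Subconfluent cells, 1 and 2 for KAT2A_KD against KAT2B_KD in Confluent and Differentiated cells, and 1 for the stage change of KAT2AB_KD against NT. In fits of the compared groups alone, with fewer samples, the step to Confluent gave 0 in KAT2AB_KD and 2 in KAT2A_KD, and the step to Differentiated 5 in KAT2B_KD. Those fits gave 1 for KAT2A_KD against NT in Confluent cells, 1 each for KAT2AB_KD against KAT2B_KD in Confluent and Differentiated cells, and 0 for the stage change of KAT2B_KD against NT. The cause of the other shifts was not tested.

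The deviations of libraries with the same replicate number correlated weakly and unevenly, with r from -0.26 to 0.41, a median of 0.118 over 66 pairs of groups and 37 of them over 0.1. The correlation was not over 0.1 in every pair and no label ties the numbers to a shared source, so the block was not made part of the reported fit. With a replicate block 1 gene was called in KAT2AB_KD against NT in Subconfluent cells and 1 in Differentiated cells, 2 in KAT2B_KD against NT in Differentiated cells and 2 in KAT2A_KD against KAT2B_KD in Differentiated cells, and no other count moved by over 1.5 times.

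Leaving out 1 library gave 5 to 8 calls for the step to Differentiated in KAT2AB_KD, 6 to 7 in KAT2A_KD, 5 to 6 in KAT2B_KD and 7 to 8 in NT. The step to Confluent gave 0 to 1 in KAT2AB_KD and in NT. KAT2AB_KD against NT in Confluent cells gave 0 in each case. KAT2AB_KD against KAT2B_KD gave 0 in Subconfluent, 0 to 1 in Confluent and 1 to 2 in Differentiated cells, and the stage change of KAT2B_KD against NT gave 0 to 1. The log2 fold change of MMP10 in KAT2B_KD over NT in Differentiated cells ranged from -0.15 to 0.43 and so reversed, and the difference between KAT2A_KD and NT in its stage change ranged from -0.58 to 0.0045 and reversed without KAT2A_KD Differentiated 2.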
